A study of Mus musculus with 59 samples.

Results

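The genes described here are 8 C-type lectin genes of myeloid cells, Mgl2, Clec10a, Clec4b2, Clec4a1, Clec4a2, Clec4a3, Clec7a and Clec12a, out of 51810 genes listed. They were taken by name from every gene-level table as candidates for dependence on the transcription factor Pu.1 in granulocyte–monocyte progenitors (GMPs). The genes were chosen by their normalized counts in GMPs labelled Pu.1-KO or DKO against WT and Daxx-KO, so those differences are given as a description, with no test for these genes. The lists of other genes below were also drawn up with earlier results of these data known.

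C-type lectin receptors are membrane proteins that bind sugars or other ligands and carry signals into phagocytes and dendritic cells. Some carry activating motifs or pair with adaptors such as Fcer1g and Tyrobp, which recruit the kinase Syk, and others carry inhibitory motifs that recruit phosphatases such as Ptpn6. Many are switched on as progenitors enter the granulocyte and monocyte lineages, in which Pu.1, an ETS-family transcription factor encoded by Spi1, is a master regulator.

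RNA-seq was performed on KLS cells, the c-Kit-positive, lineage-negative, Sca-1-positive fraction that holds the stem cells, and on GMPs, all sorted from bone marrow of C57BL/6 mice. The questions of the design were what changes when Daxx, a chaperone of histone H3.3, is lost and which of these changes need Pu.1. The untimed set, for which the labels give neither a line nor a time, held 2 Daxx +/+ Cre +/- (WT) and 2 Daxx F/F Cre +/- (Daxx-KO) libraries of each cell type. The paper also reports KLS cells and GMPs from irradiated mice transplanted with WT or Daxx-KO Mx1Cre marrow, a setting it calls stress haematopoiesis. Its other KLS and GMP sets are timed, at 3 and 24 w.p.i. No label says whether the untimed set came from transplanted mice. The other sets came from the Mx1Cre line, in which an interferon-inducible promoter drives Cre beyond blood cells too, and were taken 3 weeks after induction with pI:pC (w.p.i.), except for 2 WT libraries of each cell type from 24 w.p.i., which enter no comparison. At 3 w.p.i. they held 3 WT, 3 Daxx-KO and 2 DKO libraries, Daxx F/F together with Pu.1 F/F and Cre +/-, of each cell type, and, in separate tables called the Pu.1 line, 2 Pu.1 +/+ Cre +/- (WT) and 2 Pu.1 F/F Cre +/- (Pu.1-KO) libraries of each cell type. Every control carried Cre and, where the line was Mx1Cre, the same induction, and the labels give no age for the mice, for which the methods state a usual range of weeks at treatment. KLS libraries at 3 w.p.i. are named by number, and libraries whose column gave a group only are named a, b and c in the order of the columns. No sample title matches the columns of the Pu.1 line, of 24 w.p.i. or of a KLS WT library at 3 w.p.i. Their groups were inferred from endings of C (control) or T (treatment) on the same numbers in the repeat-element values. Groups of GMPs at 3 w.p.i. were inferred from numbers shared with KLS columns. Below, labelled Pu.1-KO or DKO includes such inferred groups. The paper describes the replicates of its genomic assays as biological. The labels do not say that every library came from a separate animal, so p-values measure the spread between these libraries, which may be partly technical. Outside the untimed set the column headers carry numbers, and the same numbers head KLS and GMP columns. KLS and GMP results of those sets are therefore taken as coming from the same mice and not as independent.

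Across the 36 libraries the gene reads numbered 3388906 to 29335964, and the shallowest were in the untimed set. In untimed KLS cells depth differed between the groups, with 3857858 and 3942149 reads in WT and 6343790 and 22647397 in Daxx-KO. There 1 read was worth 1.72 normalized counts in each WT library and 1.09 and 0.303 in Daxx-KO. The part of depth in the results on genes with few reads was not tested. Daxx was lower in every Daxx-deleted library than in the WT libraries of its table, with log2 differences from -3.19 to -1.98. Spi1 was not called lower in any library set labelled as deleted for Pu.1. In KLS cells it was at 3330.4 and 2993 in the 2 libraries labelled DKO against 1676, 1669 and 2320.0 in WT (limma log2 difference 0.76, adjusted p = 0.0155), and it did not pass the test in the GMPs labelled DKO or in either cell type labelled Pu.1-KO (adjusted p = 0.997, 0.747 and 0.153 against WT). In GMPs of the Pu.1 line it was at 2589 and 2707 in the libraries labelled Pu.1-KO and at 3395 and 3934 in WT, below both (log2 difference -0.46). A value for the whole gene does not check a deletion that leaves most of the transcript. The deleted part of Spi1 is not given in the sources used here. These libraries are therefore called by their labels throughout, which are inferred groups in the Pu.1 line and in the GMPs labelled DKO. Spi1 rose in the untimed Daxx-KO libraries, by 1.42 in KLS cells and 0.86 in GMPs on the log2 scale (adjusted p = 6.57e-05 and 0.00016). The KLS WT library at 3 w.p.i. whose replicate number no label gives, called the unnumbered library, stood apart. Its summed level over 12 neutrophil marker genes was 28703, against 2681 and 566 in the other 2 WT libraries. Its column header carries the same number as that of WT library c of the GMPs. In untimed KLS cells WT library 1 stood apart in the same way, with a neutrophil sum of 6196 against 37.9 in WT library 2 and 971 and 1642 in Daxx-KO. Results on the 8 genes that rest on these 2 libraries are given with and without them. Counts of calls in the lists of other lectins, lectin signalling and Pu.1 targets are too, by a choice made after seeing the data. Genes named from those lists in untimed KLS cells, and marker counts other than those of neutrophils, are given only with them. RNA of some sort markers also differed between groups, which does not measure the surface protein used for sorting. Fcgr3, whose product is part of the GMP gate, was at 19.6 and 87.2 in untimed Daxx-KO GMPs and 654 and 712 in WT. Cd34 was at 24.9 and 75 against 436 and 556. Kit, of the same gate, went the other way, at 4380 and 4580 against 3373 and 3439. In GMPs labelled Pu.1-KO, Fcgr3 was at 1033 to 1563 against 2058 to 2239 in WT. Cd34 was at 258 to 377 against 594 to 842 there, and Kit at 2980 to 3640 against 4618 to 5300. In GMPs labelled DKO, Cd34 was at 300 to 816 against 871 to 1440 in WT, and Kit at 3736 to 4025 against 4516 to 5957. Fcgr3 overlapped WT in those GMPs. In KLS cells labelled DKO, Cd34 was at 235 to 554 against 2091 to 2541 in WT.

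Of these genes, 6 lie on chromosome 6, in a group of 4 and a group of 2, and the other 2 on chromosome 11, in GRCm38 coordinates with GENCODE vM21 annotation. Mgl2 (chr11:70130329-70137550) and Clec10a (chr11:70156197-70170834) are neighbours on the plus strand of chromosome 11 and encode galactose-binding lectins of macrophages and dendritic cells. Clec4a1 (chr6:122921848-122934619), Clec4a3 (chr6:122952515-122969875), Clec4a2 (chr6:123106428-123143999) and Clec4b2 (chr6:123172893-123204671) follow each other on the plus strand of chromosome 6. Clec4a2 encodes DCIR, an inhibitory receptor of dendritic cells, and Clec4a1 and Clec4a3 are its close relatives. Clec12a (chr6:129342691-129365303, plus strand) encodes an inhibitory receptor of myeloid cells, and Clec7a (chr6:129461591-129472779, minus strand) encodes Dectin-1, the receptor for fungal beta-glucans, and is typed as a polymorphic pseudogene in the annotation. Of all 50-base runs in their exons, 13.1% in Mgl2 and 9.02% in Clec10a also occur in other genes, mostly in each other, so reads of these 2 genes can be split or lost. The share was 6.83% in Clec4a2, of which 3.85% with its neighbour Clec4a4, 0.457% in Clec12a and 0 in the other 4. Clec4b2 overlaps Gm22946 and Clec4a2 overlaps Gm44132, and whether strand was used in counting is not given in the sources used here.

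The promoters were searched for GAGGAA, the purine-rich core that Pu.1 binds, and for its reverse complement TTCCTC, in the 250 bases before each RefSeq start (GRCm38.p6). Of these genes, 7 had such a window, with 9 windows in all, and Clec10a had none. The motif was held at least once by 6 of the 7 genes. The exception was Clec4a2, and Clec4a3 held the motif in 1 of its 2 windows. Counted per promoter and not per gene, 23.3% of all 32851 promoters searched held it, so the 2 shares are not of the same unit. The window of Clec12a lay wholly inside annotated exons. The longer form GAGGAAGT (reverse complement ACTTCCTC), which contains the first motif, was in none of these windows and in 2.44% of all promoters. A match is a description of the letters and not a binding site. The part of the window outside annotated exons is printed for 4 genes, from 5′ to 3′ on the strand of the gene, because Mgl2 and Clec4b2 were the members lowest relative to WT in GMPs labelled Pu.1-KO or DKO, Clec4a1 lay on the other side, and Clec7a passed the test in the direction opposite to the other called genes in 3 comparisons. Capitals mark GAGGAA or TTCCTC.
Mgl2, chr11:70130107-70130328, plus strand: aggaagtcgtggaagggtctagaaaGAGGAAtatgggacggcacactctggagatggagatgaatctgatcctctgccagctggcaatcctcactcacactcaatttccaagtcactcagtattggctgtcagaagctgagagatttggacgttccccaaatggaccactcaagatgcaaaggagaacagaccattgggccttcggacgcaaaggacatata
Clec4b2, chr6:123172773-123172892, plus strand: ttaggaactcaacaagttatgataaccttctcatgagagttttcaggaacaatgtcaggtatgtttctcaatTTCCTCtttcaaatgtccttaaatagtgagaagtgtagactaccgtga
Clec4a1, chr6:122921598-122921847, plus strand: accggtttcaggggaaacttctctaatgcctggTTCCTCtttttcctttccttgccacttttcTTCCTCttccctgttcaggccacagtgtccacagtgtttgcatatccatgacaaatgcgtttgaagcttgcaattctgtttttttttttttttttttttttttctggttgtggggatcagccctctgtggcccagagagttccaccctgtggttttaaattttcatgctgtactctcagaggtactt
Clec7a, chr6:129472780-129473029, minus strand: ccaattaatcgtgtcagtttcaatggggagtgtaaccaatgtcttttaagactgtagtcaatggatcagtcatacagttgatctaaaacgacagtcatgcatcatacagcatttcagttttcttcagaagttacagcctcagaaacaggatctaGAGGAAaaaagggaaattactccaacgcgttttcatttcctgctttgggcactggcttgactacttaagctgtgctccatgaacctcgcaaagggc
The capitals lie 225 bases before the start in Mgl2, 178 in Clec4b2, 217 and 187 in Clec4a1 and 96 in Clec7a. In Mgl2 and Clec7a the motif is on the strand of the gene, and in Clec4b2 and Clec4a1 on the opposite strand.

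In WT GMPs, Clec12a stood highest and a group of 3 genes stood lowest in each of the 4 tables. Per kb of exon, Clec12a was at a normalized count of 543 ± 46.7 (SD, n = 2) in untimed GMPs, 789.6 ± 264 (SD, n = 3) at 3 w.p.i., 965 ± 18.2 (SD, n = 2) in the Pu.1 line and 1600.2 ± 7.33 (SD, n = 2) at 24 w.p.i., and its libraries did not overlap those of the next gene. Clec4b2, Clec4a2, Clec7a and Mgl2 came next, with means of 343, 334, 221 and 219 per kb at 3 w.p.i., and there each overlapped its neighbour in this order. Clec10a, Clec4a1 and Clec4a3 were lowest, at means of 11.3 to 17.6 per kb at 3 w.p.i., and lay apart from the higher 5 in all 4 tables. Tables were normalized separately, so levels in different tables are set side by side with no test.

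In WT KLS cells Clec12a was again first per kb, at 34.1 ± 7.24 (SD, n = 2) untimed, 139.5 ± 122 (SD, n = 3) at 3 w.p.i. and 194 ± 37.2 (SD, n = 2) in the Pu.1 line, and at 3 w.p.i. its libraries overlapped those of Clec4b2. Clec4a3 was last in the untimed and Pu.1 line tables and in the 24 w.p.i. table, and Clec10a at 3 w.p.i., where neighbours overlapped throughout the order. In the untimed WT KLS libraries Mgl2, Clec4b2, Clec4a1, Clec4a2 and Clec4a3 were each at 0 reads in library 2, 1 read being worth 1.72 normalized counts there. A count of 0 in that library allows up to 3 reads, so these genes are at or under what the depth can show.

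**Figure D1:**
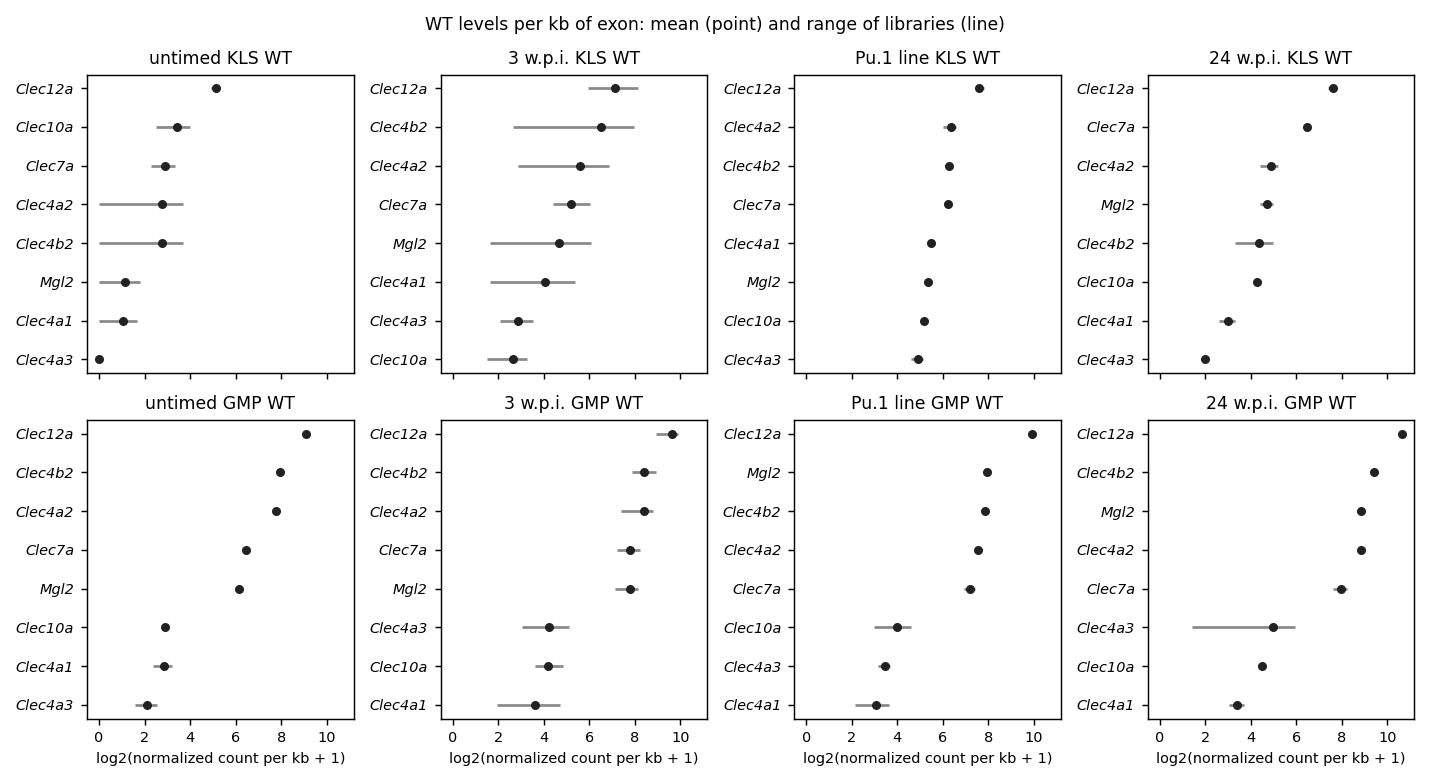
Mean level (point) and range of the libraries (line) of each gene in the WT groups, as log2(normalized count per kb of exon + 1), with genes ordered from highest to lowest in each panel. Clec12a is at the top of all 8 panels, and Clec10a, Clec4a1 and Clec4a3 are the lowest 3 in every GMP panel.

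In GMPs labelled Pu.1-KO or DKO, Mgl2 and Clec4b2 were the members farthest below WT. These are values the choice of genes used, and a test is not given for any of them. Mgl2 was at 484 and 552 normalized counts in the 2 WT libraries of the Pu.1 line and at 53.1 and 59.9 in the 2 labelled Pu.1-KO, 9.16-fold lower. At 3 w.p.i. it was at 494, 294 and 587 in WT, 309.6, 198 and 229 in Daxx-KO and 12.2 and 90.7 in the libraries labelled DKO. The groups labelled Pu.1-KO and DKO lay below every WT library, and the 2 libraries labelled DKO differed from each other by more than the 2 labelled Pu.1-KO did. Fewer cells of a type and less RNA per cell cannot be told apart in such bulk samples.

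Clec4b2 was at 281 and 257 in WT and 53.1 and 21.4 in the libraries labelled Pu.1-KO, 7.23-fold lower. At 3 w.p.i. it was at 362, 278 and 567 in WT, 264, 527 and 289 in Daxx-KO and 61.9 and 24.7 in DKO-labelled libraries, 9.29-fold below WT. Neither group overlapped its WT libraries. Clec12a was at 5262 and 5404 in WT and 2016 and 3094 in libraries labelled Pu.1-KO, 2.09-fold lower, and at 5164, 2681 and 5249 in WT and 1645 and 2868 in DKO-labelled libraries at 3 w.p.i. In the second set the groups overlapped, because WT library b was below 1 of the libraries labelled DKO. Clec4a2 was at 547 and 548 in WT and 408 and 312 in libraries labelled Pu.1-KO, and at 1161, 484 and 1284 in WT against 516 and 374 in libraries labelled DKO at 3 w.p.i., where the groups overlapped.

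The other 4 genes did not lie below WT in the Pu.1 line. Clec4a1 was at 18 and 5.22 in WT and 70.8 and 40.2 in libraries labelled Pu.1-KO, a ratio of 4.59 from the summed reads. Clec4a3 was at 15.9 and 10.4 against 41.6 and 26.5, a ratio of 2.56. In both genes the libraries labelled Pu.1-KO were above the WT libraries. More genes reached a mean of 10 in this table, 19337 against 13714 in GMPs at 3 w.p.i. The part of this in the values of low genes such as these was not tested. Clec10a was at 66.7 and 19.6 in WT and 56.2 and 75.3 in libraries labelled Pu.1-KO, and Clec7a at 315 and 444 against 373 and 607, and both overlapped. At 3 w.p.i. Clec4a1, Clec4a3, Clec10a and Clec7a ranged from 6.9 to 826 in the libraries labelled DKO, and all 4 overlapped WT.

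On the log2(normalized count + 1) scale, the differences between GMPs labelled Pu.1-KO and WT were -3.17 for Mgl2, -2.96 for Clec4b2, -1.09 for Clec12a, -0.62 for Clec4a2, 0.35 for Clec7a, 0.82 for Clec10a, 1.30 for Clec4a3 and 2.32 for Clec4a1. Between GMPs labelled DKO and WT they were -3.67, -3.26, -0.94, -1.03, 0.25, 0.65, -0.60 and 1.07 in the same order of genes, and between GMPs labelled DKO and Daxx-KO -2.80 for Mgl2, -3.10 for Clec4b2, -0.67 for Clec12a, -0.56 for Clec4a2, 0.25 for Clec7a, 0.42 for Clec10a, 0.71 for Clec4a3 and 3.75 for Clec4a1. The last 2 comparisons share the libraries labelled DKO. The groups did not overlap in 6 of the 8 genes in the Pu.1 line, and in 65.0% of all genes tested, nor in 2 of the 8 between the libraries labelled DKO and WT, and 18.6% of all. Over all genes tested, 17.6% passed the test in the first of these comparisons, 0.292% in the second and 0.0583% in the third. Neutrophil markers were higher in the libraries labelled Pu.1-KO, where 11 of 12 rose and the summed level was 169196 to 171714 against 30422 to 38108 in WT. Of the GMP markers 5 of 10 fell, with sums of 110473 to 194422 against 273367 to 298172, of the monocyte and macrophage markers 5 of 18 rose, and of the B and plasma cell markers 6 of 10 tested rose. The part of these markers in the lectin values was not tested.

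**Figure D2:**
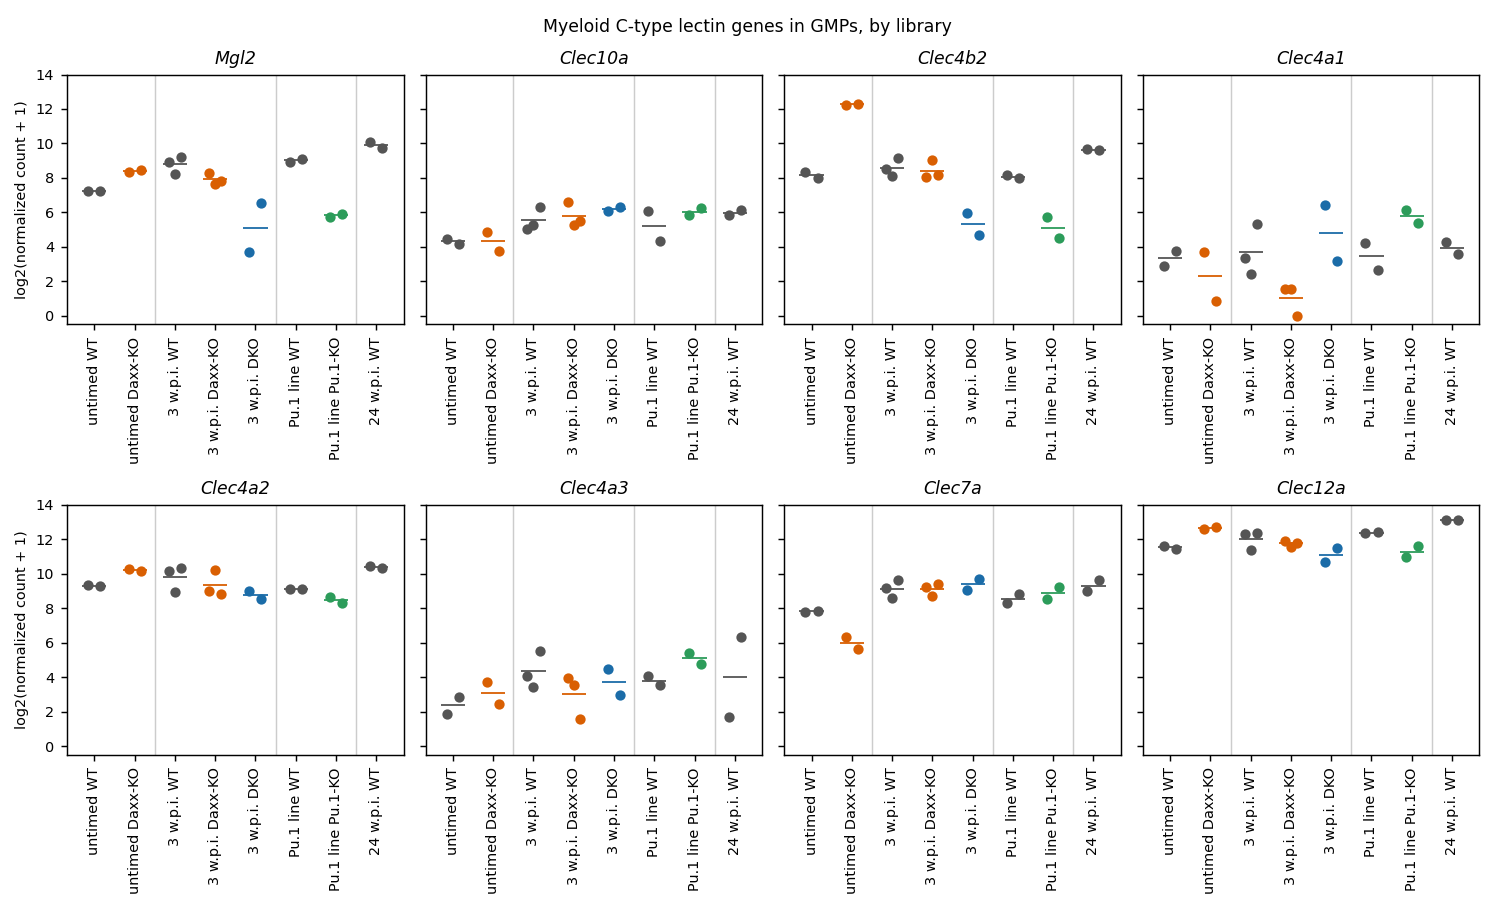
Level of each gene in every GMP library (points) with the group mean (line), as log2(normalized count + 1). Grey vertical lines part the 4 tables, which were normalized separately. Mgl2 and Clec4b2 in libraries labelled DKO and Pu.1-KO lie below all WT libraries of their tables, and Clec4b2 in untimed Daxx-KO GMPs lies near 12 on this scale.

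Loss of Daxx in untimed GMPs went with higher levels of Clec4b2, Mgl2, Clec12a and Clec4a2 and a lower level of Clec7a. Clec4b2 was at 317 and 254 in the 2 WT libraries and 4907 and 4909 in the 2 Daxx-KO libraries, 17.2-fold higher, with a log2 difference of 4.11 ± 0.12 (SE, adjusted p = 1.24e-07). The fit was made with limma across all genes, with Benjamini-Hochberg adjustment. In the Daxx-KO libraries Clec4b2 passed Clec12a to become the highest of the 8 genes per kb, at 4180.5 ± 1.6 (SD, n = 2) against 1180.4 ± 82.7 (SD, n = 2). Mgl2 was at 148 and 148 in WT and 324 and 348 in Daxx-KO, 2.27-fold higher, with a log2 difference of 1.17 ± 0.15 (SE, adjusted p = 0.000417). Both groups were tight and far apart in these 2 genes.

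Clec12a was at 3186 and 2821 in WT and 6202 and 6848 in Daxx-KO GMPs, 2.17-fold higher (log2 difference 1.12 ± 0.10, adjusted p = 5.35e-05). Clec4a2, the inhibitory DCIR, was at 641 and 623 in WT against 1216 and 1127 in Daxx-KO, 1.85-fold higher (0.89 ± 0.10, adjusted p = 0.000201). Clec7a, the beta-glucan receptor, fell from 222 and 231 in WT to 79.1 and 48.5 in Daxx-KO, 3.56-fold lower (-1.86 ± 0.26, adjusted p = 0.000665). The groups did not overlap in any of these 5 genes, nor in 67.2% of all genes tested. Clec10a was at 20.8 and 17.2 in WT and 28.4 and 12.6 in Daxx-KO and overlapped (adjusted p = 0.993). Clec4a1, at 6.5 and 12.7 against 12.2 and 0.816, and Clec4a3, at 2.6 and 6.33 against 12.2 and 4.49, were under the filter of a mean value of 10 and were not tested.

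Thus 4 of the 6 tested genes rose and 1 fell in untimed Daxx-KO GMPs, where 33.0% of all tested genes passed the test, 16.6% upwards and 16.5% downwards. All 5 calls held with edgeR, with DESeq2 and without any 1 library. Over the 12 neutrophil markers the summed level was 35327 and 50852 in the Daxx-KO libraries and 4946 and 6811 in WT, and 5 of 11 tested markers rose while 3 fell. Of 10 GMP markers 5 rose and 3 fell. Of the monocyte and macrophage markers 2 of 14 rose and 11 fell, and their sums were 15399 and 16935 in WT against 7603 and 7905 without Daxx. Dendritic cell markers gave 0 rises and 4 falls among 7 tested. All 9 tested markers of mast cells, basophils and eosinophils fell. The T-cell marker Cd3e was at 0 in all 4 libraries. The part of these markers in the lectin results was not tested.

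In untimed KLS cells without Daxx, Clec12a rose, and Clec10a and Clec4b2 passed the same test on few reads. Clec12a went from 217 and 160.2 in the 2 WT libraries to 2263 and 2939 in the 2 Daxx-KO libraries, 13.8-fold higher, with a log2 difference of 3.78 ± 0.18 (SE, adjusted p = 6.28e-06). Both Daxx-KO libraries were far above both WT libraries. Clec4b2 was at 13.8 and 0 in WT, from 8 reads in all, and 64.5 and 132 in Daxx-KO, with a log2 difference of 4.60 ± 1.11 (SE, adjusted p = 0.0185). It reached the filter only through the Daxx-KO libraries and did not pass without the filter (adjusted p = 0.124) or with DESeq2 (adjusted p = 0.201). Clec10a was at 13.8 and 43.1 in WT against 125 and 69.1 in Daxx-KO, 3.41-fold higher, with a log2 difference of 1.88 ± 0.54 (SE, adjusted p = 0.0384), and did not pass without the filter (adjusted p = 0.159). The groups did not overlap in any of the 3, nor in 62.8% of all genes tested.

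Mgl2 was at 5.16 and 0 in WT, from 3 reads, and 16.4 and 25.2 in Daxx-KO KLS cells, a ratio of 9.01 (2.99 to 44.4), and did not pass the test (adjusted p = 0.0732), while edgeR called it (adjusted p = 0.0402). Clec4a2 was at 34.4 and 0 against 20.8 and 38.5, and Clec7a at 24.1 and 10.3 against 6.56 and 34.5, and both overlapped (adjusted p = 0.289 and 0.982). Clec4a1 and Clec4a3 were at 0 to 4.85 in all 4 libraries, under the filter. So 3 of the 6 tested genes passed, all upwards, where 23.1% of all genes passed the test, 10.6% upwards and 12.5% downwards. Mgl2 and Clec4b2 reached the filter only through the Daxx-KO libraries, so that the count over the tested genes is no support. All WT reads of Mgl2, Clec4b2 and Clec4a2 lay in WT library 1, the one with the higher neutrophil sum. Without that library the log2 difference of Clec4b2 was 6.55, against 4.60 with it. Without Daxx-KO library 1 or library 2, Clec10a (adjusted p = 0.425 and 0.291) and Clec4b2 (adjusted p = 0.263 and 0.395) lost their calls. Clec10a also lost it without WT library 1 (adjusted p = 0.146), while Mgl2 and Clec4a2 passed without that library (adjusted p = 0.00665 and 0.00742). Clec12a kept its call without any 1 library.

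Markers of GMPs moved in the same libraries. Elane, a granule protease gene of myeloid progenitors, was at 10.3 and 119 in WT and 729 and 1524 in Daxx-KO KLS cells. Of 10 GMP markers, 7 rose and 2 fell, with sums of 10379 and 10506 in WT and 17913 and 21201 in Daxx-KO, and of 10 KLS markers 1 rose and 9 fell, with sums of 37153 and 37547 in WT against 8308 and 8795 in Daxx-KO. The monocyte and macrophage sum was 859 and 1208 in WT and 12371 and 14756 in Daxx-KO. Among 13 tested markers of that list 6 rose and 0 fell, and Cd14, under the filter, was at most 5.15 in either group. Dendritic cell markers gave 0 rises and 7 falls among 11 tested, with sums of 6580 and 7226 in WT against 3669 and 3902 in Daxx-KO. Of 11 tested neutrophil markers 2 rose, and 10 without WT library 1. Their part in the lectin results was not tested.

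At 3 w.p.i. the KLS cells labelled DKO had more Clec7a than either WT or Daxx-KO cells. Clec7a was at 623 and 396 in the 2 libraries labelled DKO, 57.3, 53 and 169 in WT, the unnumbered library last, and 55.4, 62.8 and 82.6 in Daxx-KO. Both libraries labelled DKO were above all others. Against WT the log2 difference was 2.62 ± 0.49 (SE, adjusted p = 0.00746), and 3.15 without the unnumbered library (adjusted p = 0.000525). Against Daxx-KO it was 2.89 ± 0.49 (adjusted p = 0.00409). Without DKO library 1 both calls were lost (adjusted p = 0.103 and 0.0702). Per kb, Clec7a was the highest of the 8 genes in these cells, at 193 ± 60.8 (SD, n = 2), above Clec12a at 72.6 ± 10.3 (SD, n = 2).

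Several other genes were near the limit of detection in the same cells. Mgl2 had 0 reads in both libraries labelled DKO, against 10.8, 4.41 and 140.1 normalized counts in WT and 6.79, 8.08 and 2.09 in Daxx-KO. Taking 3 reads over the group as the floor, it was at least 35.2-fold lower than WT, at least 5.06-fold lower than WT without the unnumbered library, and at least 3.99-fold lower than Daxx-KO. The unnumbered library held most of the WT reads, with 15 of 155 in the other 2. Mgl2 did not pass the limma test (adjusted p = 0.0574 against WT, 0.164 without that library, and 0.254 against Daxx-KO), but passed against WT with a pseudocount of 0.5, edgeR and DESeq2 (adjusted p = 0.0418, 0.0483 and 0.000232). Clec4a2 was at 9.58 and 1.93 in libraries labelled DKO, from 12 reads, 63.8, 18.5 and 337 in WT and 26, 15.3 and 17.8 in Daxx-KO. It fell against WT with a log2 difference of -3.76 ± 1.07 (SE, adjusted p = 0.0387), but lost the call without the unnumbered library, at a difference of -2.68 (adjusted p = 0.0737). Leaving out WT library 1, DKO library 1 or DKO library 2 also ended the call (adjusted p = 0.0938, 0.101 and 0.178).

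Clec10a was at 7.66 and 0.964 in libraries labelled DKO, from 9 reads, 75.8, 53.8 and 37.7 in Daxx-KO libraries, against 5.4, 15 and 25 in WT. It was lower in the libraries labelled DKO than in Daxx-KO, with a log2 difference of -3.73 ± 0.88 (SE, adjusted p = 0.0189), and 12.8-fold lower by summed reads (exact 95% interval 6.56 to 28.4, counting error only). The call was lost without Daxx-KO library 1 (adjusted p = 0.0721) and without DKO library 2 (adjusted p = 0.0926). Against WT it overlapped and did not pass (adjusted p = 0.198, 0.387 without the unnumbered library). Clec4b2 was at 8.62 and 1.93 in libraries labelled DKO, 20.5, 6.18 and 294 in WT and 14.7, 19.7 and 7.32 in Daxx-KO. Clec4a1 was at 0.958 and 1.93 in the libraries labelled DKO, against 3.24, 5.3 and 64 in WT and 1.13, 4.49 and 6.28 in Daxx-KO. In both genes the unnumbered library was the highest by far. Clec4b2 in the libraries labelled DKO overlapped both other groups, and Clec4a1 lay below every WT library and overlapped Daxx-KO. Clec12a was at 361 and 441 in libraries labelled DKO, 432, 335 and 1547 in WT and 472, 697 and 439 in Daxx-KO. None of these 3 genes passed the limma test in the 3 comparisons. Without the unnumbered library the log2 differences between libraries labelled DKO and WT were -1.23 for Clec4b2, -1.11 for Clec4a1 and 0.070 for Clec12a (adjusted p = 0.472, 0.628 and 0.886), against -2.75, -2.33 and -0.60 with it. DESeq2 called Clec4b2 and Clec4a1 lower in libraries labelled DKO than in WT (adjusted p = 0.00182 and 0.0429).

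Of the 7 tested genes, 1 rose and 1 fell against WT, where 17.6% of all genes passed the test, 9.24% upwards and 8.40% downwards. Without the unnumbered library 1 of the 7 passed, Clec7a. Likewise 1 rose and 1 fell against Daxx-KO, where 15.4% of all genes passed, 8.17% upwards and 7.22% downwards. These comparisons share the libraries labelled DKO, in which Spi1 was not lower. Mgl2 and Clec4a1 reached the filter only through the unnumbered library, and Clec4a3 did not reach it, at 0 and 3.83 in the libraries labelled DKO, 4.32 to 14 in WT and 4.18 to 11.7 in Daxx-KO. The neutrophil sum was 139785 to 171573 in the libraries labelled DKO, 566 to 28703 in WT and 984 to 6432 in Daxx-KO. The GMP marker sum was 118523 to 122536, 26005 to 60576 and 18079 to 24664, and the monocyte and macrophage sum 7602 to 8453, 2807 to 13359 and 3599 to 9343, in the same order. Of the neutrophil markers, 4 of 12 rose against WT, 8 against WT without the unnumbered library, and 8 against Daxx-KO. Their part in the lectin results was not tested.

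Daxx-KO and WT KLS cells at 3 w.p.i. did not differ by the test in any of the 7 tested genes. With limma the count of calls was 0 of 7, where 0.257% of all genes passed, 1 gene, Clec10a, had an unadjusted p under 0.05, and edgeR called 0 and DESeq2 1, Clec4a2. Clec10a lay farthest above WT, at 75.8, 53.8 and 37.7 in Daxx-KO, all above the WT libraries given earlier, with a log2 difference of 1.98 ± 0.78 (adjusted p = 0.386), and 2.43 without the unnumbered library (adjusted p = 0.27). The other log2 differences were -1.90 ± 0.96 for Clec4a2, -1.79 ± 1.25 for Mgl2, -1.45 ± 1.21 for Clec4a1, -1.36 ± 1.22 for Clec4b2, -0.28 ± 0.44 for Clec7a and -0.21 ± 0.47 for Clec12a, and Clec4a3 was not tested. Without the unnumbered library they became -0.82, -0.41, -0.23, 0.17, 0.26 and 0.46 in the same order, so that Clec4b2, Clec7a and Clec12a turned from lower to higher. None of the 7 genes passed without it.

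**Figure D3:**
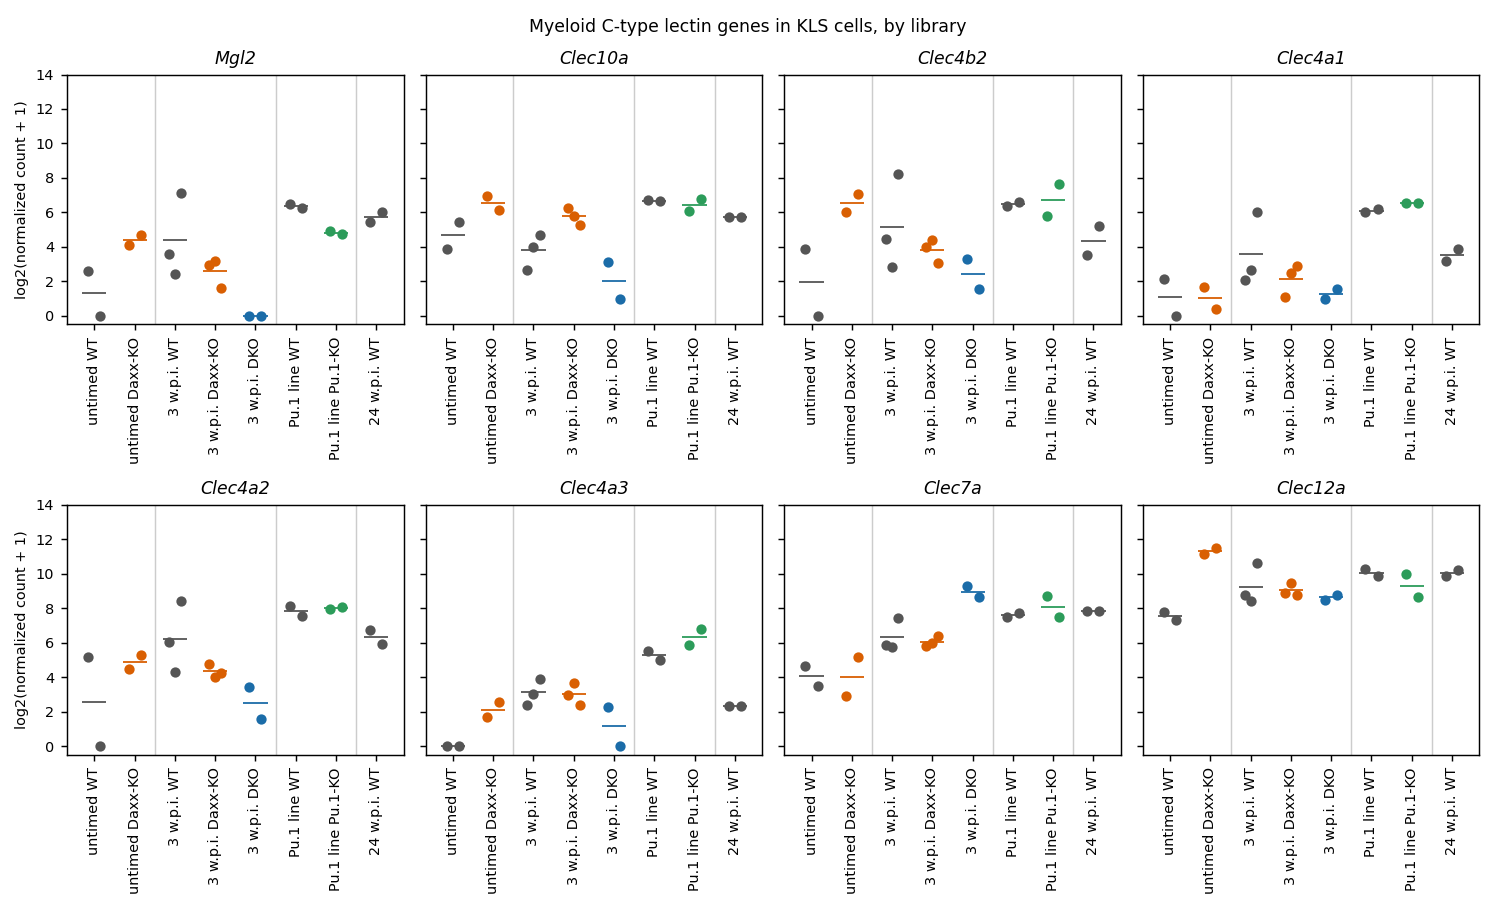
Level of each gene in every KLS library (points) with the group mean (line), as log2(normalized count + 1), with grey vertical lines between tables. Clec7a is highest in the 2 libraries labelled DKO at 3 w.p.i., Clec12a is higher in untimed Daxx-KO than in untimed WT, and the highest 3 w.p.i. WT point of Mgl2, Clec4b2, Clec4a1 and Clec4a2 is the unnumbered library.

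GMPs at 3 w.p.i. showed no call between Daxx-KO and WT. With limma 0 of the 8 genes passed, where 0.0948% of all genes did, 1 gene had an unadjusted p under 0.05, and edgeR and DESeq2 called 0. That gene was Clec4a1, at 1.95, 1.9 and 0 in Daxx-KO libraries against 9.35, 4.41 and 39.2 in WT, from 4 and 50 reads, with a log2 difference of -2.68 ± 1.06 (SE, adjusted p = 1). All 3 Daxx-KO libraries were below the WT libraries. The genes that rose in untimed Daxx-KO GMPs were at 264, 527 and 289 for Clec4b2, 309.6, 198 and 229 for Mgl2, 512, 1197 and 444 for Clec4a2 and 3838, 3025 and 3569 for Clec12a in Daxx-KO GMPs at 3 w.p.i., and each overlapped WT. Their log2 differences were -0.17 ± 0.41, -0.86 ± 0.60, -0.47 ± 0.44 and -0.27 ± 0.30. Clec7a, Clec10a and Clec4a3 were at 605, 426 and 686, at 94.7, 37.1 and 44.5 and at 14.6, 10.5 and 1.98 in Daxx-KO, against 572, 388 and 792, 32.2, 37.1 and 79.4 and 15.6, 9.71 and 44.6 in WT, and overlapped too. Whether the 2 Daxx-KO effects differ between the untimed and the 3 w.p.i. tables was not tested, since the tables were normalized separately. The untimed set may also come from transplanted mice, which no label settles.

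Clec4a2 in these 8 GMP libraries went with the neutrophil markers. It was at 1197, 1161 and 1284 in Daxx-KO library b and WT libraries a and c, whose neutrophil sums were 305920.0, 310358 and 241408, and at 374 to 516 in the other 5, whose sums were 41575 to 172294. In untimed GMPs both the neutrophil sum and Clec4a2 were higher in Daxx-KO than in WT. In GMPs of the Pu.1 line they went apart. The neutrophil sum was 169196 to 171714 in libraries labelled Pu.1-KO against 30422 to 38108 in WT. Clec4a2 was at 408 and 312 against 547 and 548. The part of neutrophil markers in the Clec4a2 values was not tested.

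In KLS cells of the Pu.1 line, 0 of the 8 genes passed between libraries labelled Pu.1-KO and WT with limma, where 0.810% of all genes passed, 0 had an unadjusted p under 0.05, and edgeR and DESeq2 called 0. Mgl2 was at 89.5 and 75.9 in WT and 29.2 and 25.6 in libraries labelled Pu.1-KO. It was 3.02-fold lower, with a log2 difference of -1.56 ± 0.84 (SE, adjusted p = 0.216), and did not pass. Clec12a was at 1216 and 925 in WT against 1014 and 394 and overlapped (-0.74 ± 0.58, adjusted p = 0.365). Without Pu.1-KO library a it passed, at -1.43 (adjusted p = 0.0161). Clec4b2 was at 82.7 and 94.5 in WT and 55 and 196 in libraries labelled Pu.1-KO, which lay on both sides of WT. Clec4a1 was at 65.1 and 70.9 in WT against 93.6 and 92.2 in libraries labelled Pu.1-KO. Clec4a3 was at 44.7 and 31.2 against 58.5 and 111, and neither gene passed (adjusted p = 0.666 and 0.347). In WT KLS cells at 3 w.p.i. Clec4a3 was only at 4.32 to 14. More genes reached the filter in the Pu.1 line KLS table, 23459 against 15200 at 3 w.p.i. The part of this in the values of low genes was not tested.

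Clec10a was at 104 and 99.6 in WT against 65.5 and 108 in libraries labelled Pu.1-KO, Clec4a2 at 281 and 188 against 243 and 269, and Clec7a at 179 and 208 against 415 and 176. The groups overlapped in all 3, which had log2 differences of -0.28 ± 0.70, 0.16 ± 0.60 and 0.49 ± 0.60. In this table the calls were split 110 higher to 80 lower with the authors' scaling and 587 to 201 with TMM scaling, and the median of all genes moved from 0.12 to 0.19 on the log2 scale. The neutrophil sum was 24631 to 45138 in WT and 61370.3 to 127151 in libraries labelled Pu.1-KO.

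**Figure D4:**
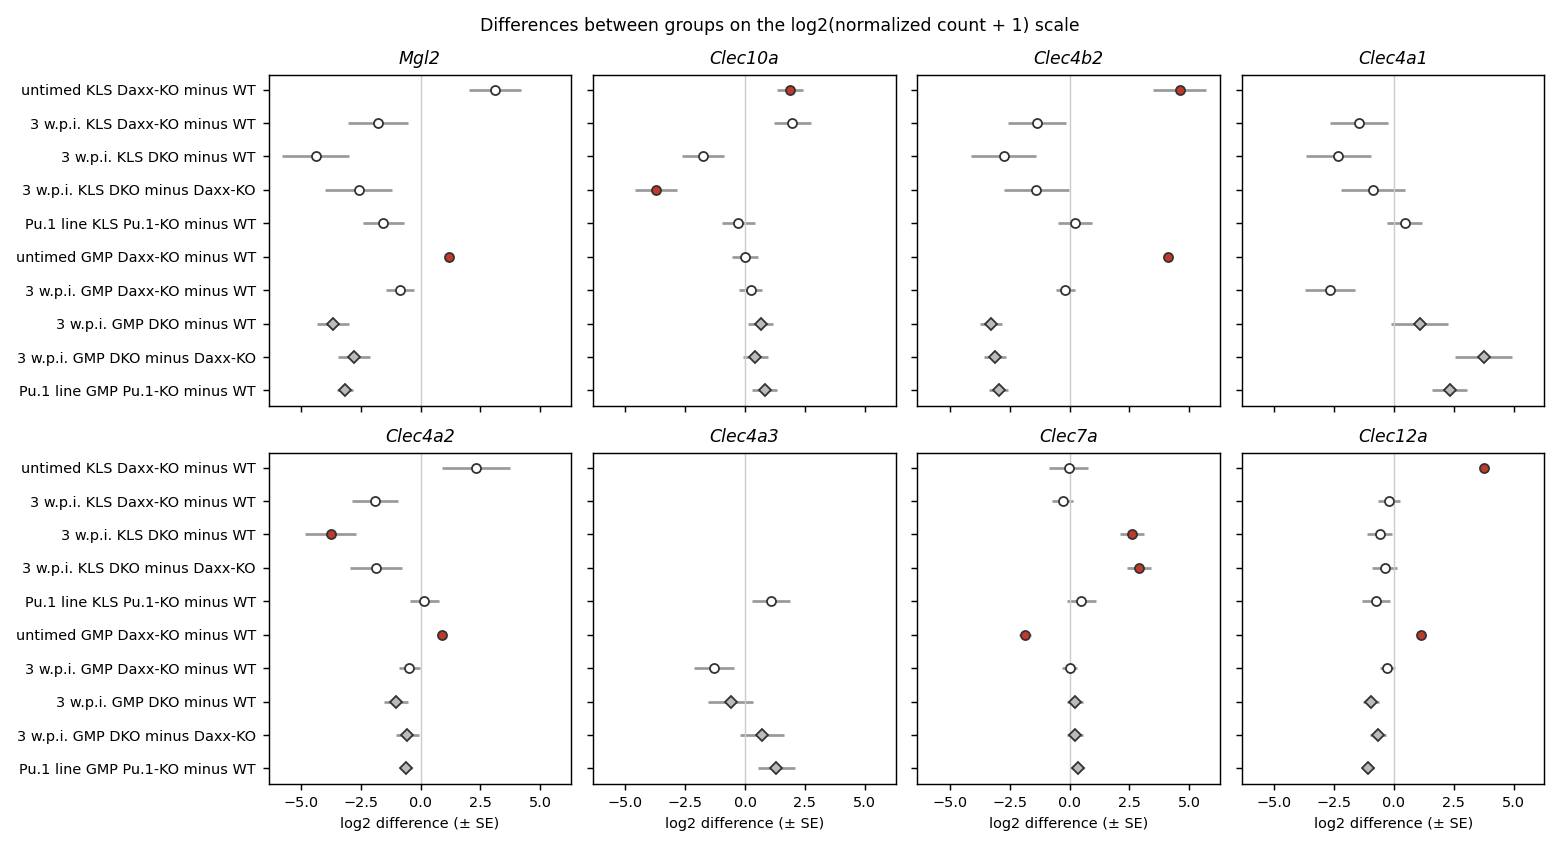
Log2 difference ± SE of each gene in the 10 comparisons, on the log2(normalized count + 1) scale. Red circles passed the limma test, open circles did not, and grey diamonds are comparisons that the choice of genes used and that carry no test. Clec4b2 and Clec12a lie to the right in both untimed comparisons, and Mgl2 and Clec4b2 to the left in the 3 GMP comparisons of libraries labelled Pu.1-KO or DKO.

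Other C-type lectin genes, 42 in all, changed in both directions in the untimed Daxx-KO libraries. In GMPs 6 of 18 tested genes rose and 8 fell, where 33.0% of all genes passed, 16.6% upwards and 16.5% downwards, with a median difference of -0.95 beside -0.01 over all genes. Mrc1, the macrophage mannose receptor, was at 227 ± 104 (SD, n = 2) in Daxx-KO and 40.8 ± 19 (SD, n = 2) in WT, and rose (2.45 ± 0.39, adjusted p = 0.00143). Clec4e, the Mincle receptor for mycobacterial glycolipid, was at 6.51 ± 0.602 and 92.8 ± 4.26, and fell (-3.64 ± 0.42, adjusted p = 0.000231). Clec2i also rose, with a difference of 2.11 ± 0.27, and Cd72, a B-cell coreceptor, fell by 3.16 ± 0.64 on the log2 scale.

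In untimed Daxx-KO KLS cells 4 of 20 tested genes rose and 6 fell, where 23.1% of all genes passed (median 0.16, all genes 0.03). Without WT library 1, 6 rose and 6 fell. Clec2g and Clec2i rose by 3.31 ± 0.40 and 2.82 ± 0.25 on the log2 scale. Clec9a, a receptor of cross-presenting dendritic cells, and Clec1a fell, with differences of -4.25 ± 0.47 and -3.10 ± 0.35. At 3 w.p.i., KLS cells labelled DKO held more Olr1, the receptor for oxidized low-density lipoprotein, at 4869 ± 1535 (SD, n = 2) against 217 ± 222 (SD, n = 3) in WT and 77.5 ± 51.9 (SD, n = 3) in Daxx-KO (adjusted p = 0.00608 and 0.00239). Without the unnumbered library the log2 difference of Olr1 from WT was 6.13 ± 0.75, against 5.21 with it. Of the list, 4 of 22 tested genes rose against WT and 1 fell, where 17.6% of all genes passed, and 6 rose and 1 fell without the unnumbered library. Against Daxx-KO 4 of 22 rose, where 15.4% of all genes passed. Cd69, an early activation marker of leukocytes, rose against WT by 2.05 ± 0.26 on the log2 scale, and by 2.26 ± 0.24 without that library. Clec2d was lower in Daxx-KO than in WT KLS cells, with a difference of -1.66 ± 0.20 (adjusted p = 0.0102, and 0.00507 without that library), and higher in libraries labelled DKO than in Daxx-KO, with 1.87 ± 0.22.

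In GMPs labelled Pu.1-KO 7 of 31 tested genes passed, all of them upwards (median 0.69, all genes -0.0023). Of all 19337 genes tested 17.6% passed, 1770 upwards and 1642 downwards. Cd72 and Mrc2 were highest at 1.91 ± 0.37 and 1.85 ± 0.45 on the log2 scale. More of the list reached the filter here, 31 genes against 20 in GMPs at 3 w.p.i. Clec1a was the only gene of this list to pass between GMPs labelled DKO and WT at 3 w.p.i., at 3 reads over the libraries labelled DKO and 240 over WT, a ratio of 0.0188 (exact 95% interval 0.00386 to 0.0557, counting error only).

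**Figure D5:**
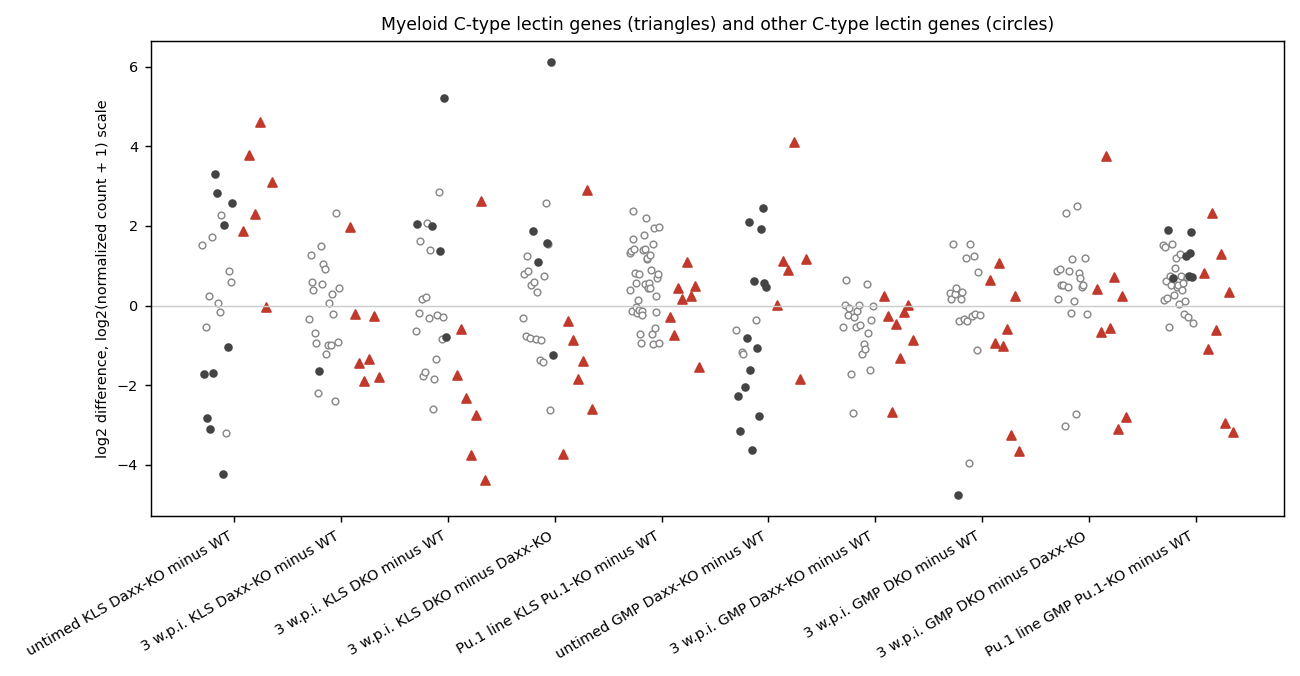
Log2 differences of the 8 genes (triangles) and of the other C-type lectin genes tested (circles, filled where they passed the limma test) in the 10 comparisons. The other genes lie on both sides of 0, and Olr1 is the highest point in the comparisons of KLS cells labelled DKO. The triangles carry no mark of a test, and 3 of the comparisons chose them.

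Among 20 genes of lectin signalling, the adaptor gene Fcer1g moved in opposite directions. It fell in untimed Daxx-KO GMPs (-2.31 ± 0.27, adjusted p = 0.000248) and rose in KLS cells labelled DKO against WT (2.56 ± 0.38, adjusted p = 0.00241) and in GMPs labelled Pu.1-KO (1.49 ± 0.24, adjusted p = 7.38e-08). In untimed Daxx-KO GMPs 10 of 19 tested genes rose and 3 fell, where 33.0% of all genes passed (median 0.38, all genes -0.01), with the adaptor Tyrobp at 0.69 ± 0.11 on the log2 scale. In untimed Daxx-KO KLS cells 5 of 20 tested genes rose and 3 fell, with and without WT library 1, where 23.1% of all genes passed, with Tyrobp up by 2.94 ± 0.20 and the kinase Src at -4.47 ± 0.57. Vav3, an exchange factor, fell in KLS cells labelled DKO against WT (-1.15 ± 0.19) and in GMPs labelled Pu.1-KO (-0.99 ± 0.26). Of the list, 2 of 20 tested genes rose and 4 fell in the former, and 1 rose and 1 fell of 20 in the latter, where 17.6% of all genes passed in each. Without the unnumbered library, 1 rose and 3 fell in the former, and Fcer1g and Vav3 passed at 2.74 ± 0.40 and -1.10 ± 0.22.

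Among 25 genes that textbooks name as targets of Pu.1, GMPs labelled Pu.1-KO had 3 calls up and 3 down of 25 tested, where 17.6% of all genes passed (median -0.08, all genes -0.0023). Csf2ra and Btk fell by 0.88 ± 0.24 and 0.77 ± 0.24 on the log2 scale, and Lyz2 and Itgb2 rose by 1.79 ± 0.27 and 1.40 ± 0.25. In KLS cells labelled DKO 4 of 23 tested genes rose and 6 fell against WT, where 17.6% of all genes passed (median -1.26), and 4 rose and 4 fell without the unnumbered library. The integrin subunit Itgam and the kinase Btk were lowest, at -3.35 ± 0.45 and -2.96 ± 0.23, and the oxidase subunit Ncf4 highest, at 2.45 ± 0.36. Without that library these 3 genes were at -2.88 ± 0.33, -2.90 ± 0.26 and 2.81 ± 0.28 and passed. In untimed Daxx-KO GMPs 11 of 21 tested genes rose and 7 fell, where 33.0% of all genes passed (median 0.55), with Lyz2, the lysozyme gene, at 2.45 ± 0.19 and Fcgr3 at -4.00 ± 0.52. In untimed Daxx-KO KLS cells 10 of 20 tested genes rose and 3 fell, with and without WT library 1, where 23.1% of all genes passed (median 0.54), with Cd68 at 3.08 ± 0.37 and Cd180 at -4.09 ± 0.29. The part of the marker genes given above for these 4 comparisons in the counts of the 3 lists was not tested.

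Of the 6 genes tested in every GMP table, Mgl2, Clec4b2, Clec12a and Clec4a2 varied together. Over the 18 GMP libraries, each expressed relative to the WT mean of its table, Pearson's r was 0.90 between Mgl2 and Clec12a, 0.86 between Clec4b2 and Clec12a, 0.83 between Clec4b2 and Clec4a2 and 0.81 between Mgl2 and Clec4b2. Clec7a ran against them, with r = -0.80 to Clec4b2, and Clec10a was at -0.42 to Mgl2. The points share tables, groups and WT baselines, and groups used to choose the genes are among them, so these values are a description. For Mgl2 and Clec4b2 the untimed Daxx-KO libraries lie at 1 end and those labelled DKO and Pu.1-KO at the other.

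The genes whose pattern was most like the mean of the 6 members tested in every GMP table were Hnmt, Cnnm4, Pak1, Tob2 and Ldhb, with r of 0.96, 0.96, 0.95, 0.94 and 0.93 among 11997 genes over the same 18 libraries. Hnmt encodes a histamine methyltransferase and Pak1 a kinase. Hnmt was at 342 and 204 in untimed WT and 554 and 556 in untimed Daxx-KO GMPs, and at 523 and 439 in WT and 174 and 236 in libraries labelled Pu.1-KO. Pak1 was at 873 and 738 in untimed WT against 2216 and 2506 in untimed Daxx-KO GMPs, and at 1252 and 1427 in WT against 527 and 598 in libraries labelled Pu.1-KO. At 3 w.p.i. Pak1 was at 1555, 1257 and 1399 in WT, 1155, 1303 and 967 in Daxx-KO and 407 and 463 in libraries labelled DKO, both of which lay below every other library of the table. In both genes the untimed Daxx-KO libraries were above WT and the libraries labelled Pu.1-KO below it. These genes were picked for that pattern, so no test is attached.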

How the data were processed

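RNA was measured in sorted KLS cells and GMPs. Per the labels, RNA was isolated with Trizol and libraries were made with the NuGEN Ovation SoLo kit, whereas the methods name that kit for transplanted mice and another for steady state, so the kit is unsettled. The authors deposited a normalized signal for each gene and library, that is, gene counts divided by 1 size factor per library, within each table. The submitters' processing notes name CASAVA 1.8.4, cutadapt 1.13, STAR 2.5.3 and DESeq2 1.16.1 and build mm10. The counter and its strand setting are not given in the sources used here. In the 36 libraries used, every value was a whole multiple of the worth of 1 read within 0.01, so whole reads could be recovered.

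Genes with a mean of at least 10 over a table were tested with limma 3.58.1 (R 4.3.3) on log2(normalized count + 1), with all libraries of a table in 1 fit, group as the only term, trend and Benjamini-Hochberg adjustment over all tested genes, and passed at an adjusted p under 0.05. Values ± are SE of a fitted difference or SD of a level. Fold changes are ratios of group means, log2 differences of low genes depend on the pseudocount and can be smaller than the ratio of means or, with a library at 0, larger, and the authors' log2 fold changes and p-values were not used. edgeR 4.0.16 and DESeq2 1.42.0 on recovered reads were alternatives, with TMM scaling, pseudocounts of 0.5 and 5, no filter, the 2 groups alone, each library left out and a replicate block. After the data were seen, the lists were also refitted without the 1 WT library that stood apart in each KLS table. The scripts were tested on simulated data. Levels per kb divide by the exon length in GENCODE vM21.

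The 8 genes and all lists were chosen with earlier results of these data known. All 8 are named in every comparison, and of the other lists a gene is named when it passed and was among the 2 largest rises or falls of its list. No label gave a library or genotype for 75 of the columns of per-sample values, those of the tables of multipotent progenitors and long-term stem cells included, and these are not analysed here. Some genes that the naming rule covers are not reported here. Intervals cover counting error only.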

Additional observations from a re-analysis of the deposited data

How the results depend on the processing

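Of 593 alternative values for the 8 genes in the comparisons that were tested, 532 kept their direction and their side of the threshold, 10 passed it anew, 19 no longer passed and 32 changed sign, and the 32 lay in genes that did not pass. Depth limits Mgl2, Clec4a1 and Clec4a3 in KLS cells, and the cause of the changes below was not tested. In untimed KLS cells, 1751 genes and 1 of the 8 passed without a filter, against 3118 and 3. Clec4b2 also lost its call with DESeq2 (adjusted p = 0.201). Clec7a there stood at 0.018 with a pseudocount of 5, 0.00091 with TMM, 0.36 with edgeR and 0.30 with DESeq2, and Clec10a in untimed GMPs at -0.023 with edgeR.

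Between Daxx-KO and WT at 3 w.p.i., DESeq2 called 335 genes in KLS cells, 198 of them higher and 137 lower, against 39 with limma, 28 higher and 11 lower, and 1 of the 8 genes. It called 67 against 13 in GMPs, where Clec7a was at -0.023 with edgeR and -0.029 with DESeq2. For KLS cells labelled DKO against WT, 1 of the 8 genes passed without a filter, 5 with DESeq2 and 1 with only the 2 groups, against 2. For GMPs labelled DKO against WT, 258 genes passed with DESeq2 and 5 with only the 2 groups, against 40. For GMPs labelled DKO against Daxx-KO, where limma called 8, all higher, 17 passed with a pseudocount of 5, 13 without a filter, 18 with TMM (14 higher, 4 lower), 20 with edgeR, 270 with DESeq2 (214 higher, 56 lower) and 0 with only the 2 groups. For Pu.1 line KLS cells, 788 passed with TMM, 1687 with edgeR (1493 higher, 194 lower) and 911 with DESeq2 (614 higher, 297 lower), against 190 (110 higher, 80 lower).

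Replicate numbers pair no samples by the labels. The correlations of same-numbered deviations, over 2 pairs each, were -0.0095 and -0.11 in untimed KLS cells and GMPs and 0.068, -0.077 and -0.18 in KLS cells at 3 w.p.i. With the number as a block over replicates 1 and 2, 367 genes passed between Daxx-KO and WT in the 3 w.p.i. KLS table, with Mgl2 at 0.073, Clec4b2 at 0.54, Clec7a at 0.098 and Clec12a at 0.59. With the same block, 1 of the 8 genes passed in libraries labelled DKO against WT, with Clec12a at 0.070, and 1550 genes passed against Daxx-KO.

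Leaving out each library in turn gave 346 to 2839 genes and 1 to 4 of the 8 in untimed KLS cells, with Clec4a2 at -0.27 to 4.87 and Clec7a at -1.16 to 1.08, and 2044 to 4391 genes in untimed GMPs, with Clec10a at -0.54 to 0.56. For Daxx-KO against WT in the 3 w.p.i. KLS table it gave 4 to 134 genes, with Clec4b2 at -2.52 to 0.17, Clec7a at -0.57 to 0.26 and Clec12a at -0.64 to 0.46. For KLS cells labelled DKO it gave 568 to 2971 genes and 0 to 2 of the 8 against WT, with Clec12a at -1.03 to 0.070, and 667 to 2455 genes and 1 to 2 of the 8 against Daxx-KO. For Daxx-KO GMPs it gave 4 to 11 genes, with Clec10a at -0.17 to 0.63, Clec4b2 at -0.48 to 0.11 and Clec7a at -0.26 to 0.25. For GMPs labelled DKO it gave 0 to 87 genes against WT and 0 to 71 against Daxx-KO. For the Pu.1 line it gave 14 to 7962 genes and 0 to 1 of the 8 in KLS cells, with Clec10a at -0.63 to 0.076, Clec4b2 at -0.68 to 1.14, Clec4a2 at -0.13 to 0.44 and Clec7a at -0.13 to 1.10, and 151 to 8155 genes in GMPs. The lone library then left in a group of 2 is assumed to vary like the other groups.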

Other observations

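At 24 w.p.i. only WT libraries were matched to a group, 2 of each cell type, and their values belong to no comparison. In KLS cells Clec12a was at 925 and 1211 normalized counts, Clec7a at 230 and 225, Clec4a2 at 106 and 58.7, Mgl2 at 42.2 and 62.7 and Clec10a at 52.8 and 52.3. Clec4b2 was at 10.6 and 35.4, Clec4a1 at 7.92 and 13.7 and Clec4a3 at 3.96 and 4.02.

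In WT GMPs at 24 w.p.i. Clec12a was at 8874 and 8817, Clec4a2 at 1377 and 1289, Mgl2 at 1067 and 847, Clec4b2 at 805 and 788, Clec7a at 511 and 782 and Clec10a at 56.8 and 68. Clec4a1 was at 18.6 and 11.1. Clec4a3, a relative of the inhibitory receptor DCIR, was at 2.18 in library a, from 2 reads, and 79.1 in library b, from 93 reads. As a ratio, though not in normalized counts, this was the widest gap between the 2 libraries among these genes.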
